A study of Mus musculus with 15 samples.

Results

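Srpk3, Camk1, Plxna3 and Izumo4 are the 4 genes whose counts in nuclei of cortical parvalbumin neurons were called lower by edgeR after an injection of thyroid hormone into mice on an antithyroid diet. They were chosen from that comparison: of 15288 genes tested, 43 were called in either direction (0.281%), and 4 of these were lower (0.0262%). The number called lower was 45 with DESeq2, 94 with Y-linked counts as a covariate and 385 with the share of long genes as a covariate. It was 0 without PTU_TH replicate 1, PTU replicate 6 or PTU replicate 7. All 15 libraries list the 4 genes, among 55341 genes in the tables of the treated mice and 48321 in those of the untreated mice. The values of the injected mice and of those on the diet alone are therefore given as a description, with no test. The comparison of mice with a dominant negative receptor and their control littermates took no part in the choice, and the 4 genes were tested there.

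Thyroid hormone acts through nuclear receptors, encoded by Thra and Thrb, which bind DNA as partners of the retinoid X receptor. Without hormone the receptor recruits corepressors to genes that hormone induces, and with hormone it exchanges them for coactivators. Another group of genes is lowered by hormone, directly or through other factors, and is less well understood. In the cortex the hormone is known for its part in the maturation and upkeep of parvalbumin neurons, fast-spiking inhibitory cells that synapse on the bodies of other neurons. Srpk3 encodes a kinase of SR proteins, which act in splicing, and is best known in muscle, where MEF2 factors drive it. Camk1 encodes calcium/calmodulin-dependent protein kinase I, a cytoplasmic kinase that acts in the growth of neurites. Plxna3 encodes plexin A3, a receptor that responds to class 3 semaphorins together with neuropilins. Izumo4 belongs to the family of Izumo1, the sperm protein needed for fusion with the egg.

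Nuclear RNA was sequenced from fluorescent nuclei sorted from single cortices of adult mice. All mice carried PvCre and ROSA-tomato-lox, so that the parvalbumin-driven Cre marked the nuclei. Ctrl mice (n = 4) were untreated and Thra+/+. Mut mice (n = 4) were untreated ThraAMI/+ littermates, which express the dominant negative receptor TRalpha1L400R from 1 floxed allele, beside a wild-type allele, where Cre has acted. PTU mice (n = 3, replicates 5 to 7) were Thra+/+ and ate propylthiouracil, a blocker of thyroid hormone synthesis, for 2 weeks. PTU_TH mice (n = 4) were Thra+/+, had the same diet, and received thyroid hormones into the peritoneum 24 h before dissection; the dose is not given in the sources used here. PTU lowers the hormone in the whole animal, whereas the Mut receptor is limited to Cre-expressing cells. An injected group without PTU was not analysed here.

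Library totals were 12957838 to 19141683 counts in PTU and PTU_TH and 22333742 to 32571175 in Ctrl and Mut. Thra had 56.9 ± 6.23 CPM (SD, n = 4) in Ctrl and 31.8 ± 4.39 (n = 4) in Mut. Hr, a known hormone-induced corepressor gene, averaged 14.2 CPM in Ctrl and 1.71 in Mut, and 3.81 in PTU and 46.5 in PTU_TH. Levels were scaled within the tables of the treated mice and within those of the untreated mice, and the direction within each follows the labels. The 12 parvalbumin neuron markers summed to 6221 to 10788 CPM and the 11 excitatory neuron markers to 176 to 268 CPM over the 15 libraries. The first list includes genes of inhibitory neurons in general, such as Gad1 and Gad2, and Pvalb itself averaged 77.3 to 135 CPM by group. Cox6a2 and Neurod1 were listed at 0 throughout. Y-linked genes were detected in Ctrl 2, Mut 1 to 3, PTU 6 and 7 and PTU_TH 3 and 4. The share of a library's counts in genes over 100 kb ranged from 24.9% to 40.7%. Both traits vary within groups and are set beside the members' values.

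All 4 members are short, protein-coding genes (GRCm38 positions, GENCODE M21). Srpk3 (ENSMUSG00000002007) lies on the plus strand at chrX:73774405-73778925 and spans 4521 bp. Plxna3 (ENSMUSG00000031398) lies on the same strand at chrX:74329066-74344689, 550 kb further along, and spans 15624 bp. Camk1 (ENSMUSG00000030272) lies on the minus strand at chr6:113334124-113343984 and spans 9861 bp. Izumo4 (ENSMUSG00000055862) lies on the plus strand at chr10:80702184-80705373 and spans 3190 bp. So 2 of the 4 share a stretch of the X chromosome, and none is longer than 15.6 kb. Retained-intron transcripts make up 3 of 4 annotated transcripts of Srpk3, 4 of 6 of Camk1, 7 of 9 of Plxna3 and 10 of 13 of Izumo4. No share over all genes is set beside these numbers, so they are not read as particular to the members. The deposited counts are per gene and do not separate these transcripts. Camk1 shares 3.88% of its exonic bases (232 bp) with Ogg1, which lies on the opposite strand, and the kits used do not mark strand; the other 3 share none.

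The 250 bases before the RefSeq start were read for the members, which were chosen for a fall in the same comparison. An entry in the RefSeq promoter table (GRCm38.p6) exists for 3 of the 4 members. The core motif of thyroid hormone receptors, AGGTCA, was searched on both strands, alone and as a direct repeat with 4 bases between the copies. Neither was found before Srpk3, Camk1 or Plxna3. Over the 32851 promoter windows of this length, 14.0% hold AGGTCA and 0.0152% hold the repeat. The Srpk3 window holds a match to the MEF2 motif, in capitals, which begins 67 bases before the start and reads as the motif on both strands. It is shown with the window of Plxna3, the other X-linked member, which holds no match; both are on the plus strand, Srpk3 at chrX:73774155-73774404 and Plxna3 at chrX:74328816-74329065.
Srpk3: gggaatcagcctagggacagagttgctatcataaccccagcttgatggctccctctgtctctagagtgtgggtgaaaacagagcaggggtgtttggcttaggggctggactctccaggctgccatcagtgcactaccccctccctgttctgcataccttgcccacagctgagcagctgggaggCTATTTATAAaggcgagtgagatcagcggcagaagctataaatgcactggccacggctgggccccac
Plxna3: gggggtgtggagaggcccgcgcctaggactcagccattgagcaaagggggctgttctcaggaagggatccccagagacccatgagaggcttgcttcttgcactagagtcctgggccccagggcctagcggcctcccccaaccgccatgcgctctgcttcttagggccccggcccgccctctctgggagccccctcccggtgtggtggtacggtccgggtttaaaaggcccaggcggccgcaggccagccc
A MEF2 match is present in 2.92% of all windows, and this motif was added after the sequence had been seen. Camk1 holds none either; its window, chr6:113343923-113344172, reaches into the GENCODE gene and so includes annotated exon. G and C make up 56.4% of the Srpk3 window, 58.0% of that of Camk1 and 68.0% of that of Plxna3, beside a median of 52.4% over all windows. A match describes letters only, and no binding was measured in these data.

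Srpk3 had the largest difference of the 4. In PTU replicates 5, 6 and 7 its levels were 82.5, 91.1 and 95.4 CPM, counts scaled to library size with TMM factors within the set of tables. In PTU_TH replicates 1 to 4 they were 40.9, 29.4, 46.5 and 33.6 CPM. Every injected mouse was thus below every PTU mouse, and the group mean was 2.38-fold lower (log2 fold change −1.25 ± 0.16 SE). Ctrl replicates 1 to 4 had 16.5, 33.9, 16.6 and 25.9 CPM, and Mut replicates 1 to 4 had 42.3, 65.0, 43.9 and 30.2 CPM. Here the groups overlapped, since Ctrl 2 was above Mut 4, although the Mut mean was 1.95-fold the Ctrl mean. The Mut difference was 0.96 ± 0.27 on the log2 scale and did not pass at a Benjamini-Hochberg adjusted p of 0.05 (edgeR quasi-likelihood, adjusted p = 0.230).

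Camk1 had the highest level of the 4. PTU replicates 5, 6 and 7 had 161, 184 and 177 CPM. PTU_TH replicates 1 to 4 had 101, 105, 111 and 104 CPM, an SD of 4.21 CPM around a mean of 105. The groups were well apart, and the PTU_TH mean was 1.65-fold lower (log2 fold change −0.72 ± 0.10). Ctrl replicates 1 to 4 had 109.7, 132, 106 and 115 CPM, and Mut replicates 1 to 4 had 152, 174, 153 and 136.5 CPM. All 4 Mut libraries were above all 4 Ctrl libraries, with Ctrl 2 and Mut 4 nearest to each other, as for Srpk3. The Mut mean was 1.33-fold the Ctrl mean, the smallest ratio of the 4 genes. The log2 difference was 0.41 ± 0.12 and did not pass edgeR's adjusted test (adjusted p = 0.228).

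Plxna3, the semaphorin receptor, was at 37.7, 49.5 and 43.3 CPM in PTU replicates 5, 6 and 7. In PTU_TH replicates 1 to 4 it was at 20.2, 21.8, 22.5 and 25.6 CPM. The groups did not overlap, and the injected mean was 1.93-fold lower (log2 fold change −0.95 ± 0.14). Ctrl replicates 1 to 4 had 15.5, 26.6, 23.0 and 24.7 CPM, and Mut replicates 1 to 4 had 35.9, 28.3, 42.9 and 37.2 CPM. Again all Mut libraries exceeded all Ctrl libraries, but the order within Mut differed: Mut 2, the highest library for the other 3 genes, was the lowest for Plxna3. The Mut mean was 1.61-fold the Ctrl mean. The log2 difference was 0.68 ± 0.19 and did not pass edgeR's adjusted test (adjusted p = 0.226).

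Izumo4, the least characterised of the 4, was at 49.1, 65.6 and 57.9 CPM in PTU replicates 5, 6 and 7. Its levels in PTU_TH replicates 1 to 4 were 31.7, 31.4, 35.8 and 34.3 CPM. The groups did not overlap, and the injected mean was 1.73-fold lower (log2 fold change −0.79 ± 0.12). Ctrl replicates 1 to 4 had 24.95, 27.9, 20.8 and 23.3 CPM, and Mut replicates 1 to 4 had 32.6, 50.1, 38.4 and 31.6 CPM. All Mut libraries were above all Ctrl libraries, and Mut 2 stood highest. The Mut mean was 1.58-fold the Ctrl mean, and the log2 difference of 0.66 ± 0.18 did not pass edgeR's adjusted test (adjusted p = 0.185).

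**Figure D1:**
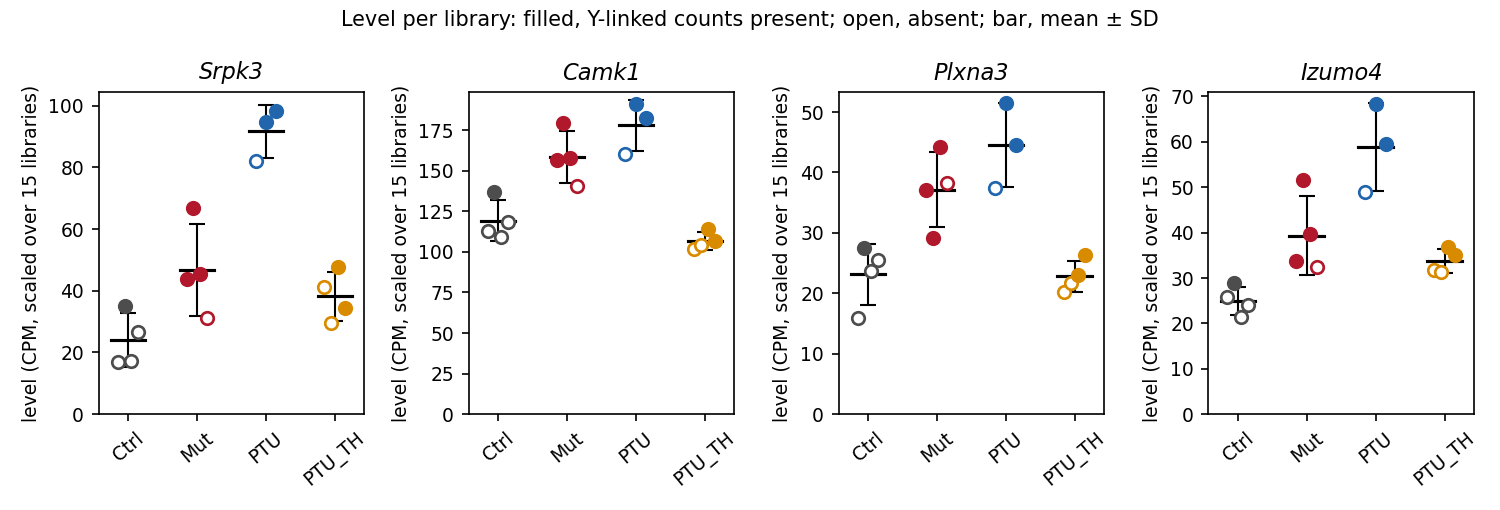
Level of each gene in every library (vertical axis, CPM scaled over all 15 libraries, starting at 0) by group (horizontal axis). Filled points are libraries with Y-linked counts, open points those without, and bars are the mean ± SD over 4 libraries (3 for PTU); PTU stands highest for each gene, and the PTU_TH points lie below all PTU points.

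The members' difference in Mut can be read against all genes. All 4 had a log2 fold change above 0, as had 52.3% of the 16949 genes tested. All 4 had an unadjusted edgeR p under 0.005, a limit set after their values were seen; over all genes 0.974% were higher at that limit and 4.2% at 0.05. In 3 of the 4 every Mut library was above every Ctrl library, which held for 2.68% of genes; the injected libraries were below all PTU libraries for 4.09% of genes, a comparison that chose the members. None of the 4 was among the 21 genes called higher in Mut (0.124%) or the 59 called in either direction (0.348%) by edgeR's adjusted test. A second count model, DESeq2, called all 4 higher, with adjusted p of 0.0360 for Srpk3, 0.0441 for Camk1, 0.0420 for Plxna3 and 0.0219 for Izumo4. It called 1.07% of its 17365 genes higher, so whether the members pass rests in part on the tool. The DESeq2 fit had no term for Y-linked counts, which 3 Mut libraries and 1 Ctrl library held. With that term edgeR's adjusted p was 0.505 to 0.605 for the members. The labels number mice, and each p sets a group difference against the spread between mice, estimated with the help of all genes.

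**Figure D2:**
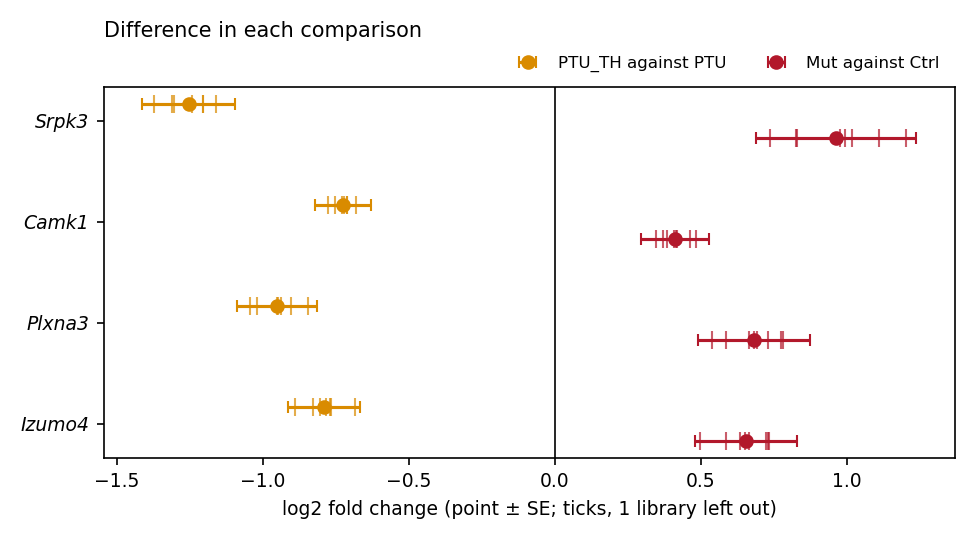
Log2 fold change of each gene (horizontal axis; point ± SE) in PTU_TH against PTU and in Mut against Ctrl, with short ticks for the estimate after leaving out each library in turn. The 4 values of PTU_TH against PTU lie between −1.25 and −0.72 and those of Mut against Ctrl between 0.41 and 0.96, and no tick crosses 0.

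Leaving out each of the 8 libraries in turn kept the Mut difference above 0 with an unadjusted edgeR p under 0.05 for each gene. The log2 difference ranged from 0.74 to 1.20 for Srpk3, from 0.35 to 0.48 for Camk1, from 0.54 to 0.78 for Plxna3 and from 0.50 to 0.73 for Izumo4. Within PTU_TH against PTU, leaving out each of the 7 libraries gave −1.37 to −1.16 for Srpk3, −0.78 to −0.68 for Camk1, −1.04 to −0.85 for Plxna3 and −0.89 to −0.68 for Izumo4. So the order of the genes by size of their difference stayed clear only for Srpk3, whose range touched none of the others in that comparison.

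Setting the 4 groups side by side needs values across the 2 sets of tables, which list different genes; set and treatment cannot be told apart there, so these differences carry no test. On CPM scaled over all 15 libraries, Srpk3 was ordered Ctrl 24.0 ± 8.69, PTU_TH 38.2 ± 7.96, Mut 46.7 ± 14.9 and PTU 91.7 ± 8.49. Ctrl overlapped PTU_TH, PTU_TH overlapped Mut, and PTU was clear of Mut. For Camk1 the order was PTU_TH 107 ± 5.26, Ctrl 119 ± 12.4, Mut 159 ± 15.9 and PTU 178 ± 16.0. Camk1 thus fell into a low pair, PTU_TH and Ctrl, and a high pair, Mut and PTU, with overlap inside each pair and none between Ctrl and Mut. Plxna3 showed the same split, with PTU_TH at 22.8 ± 2.55 and Ctrl at 23.2 ± 5.07 below Mut at 37.2 ± 6.23 and PTU at 44.5 ± 7.00. Izumo4 was ordered Ctrl 24.998 ± 3.13, PTU_TH 33.8 ± 2.58, Mut 39.3 ± 8.72 and PTU 58.9 ± 9.69. Only Ctrl and PTU_TH were separate among its neighbours in that order.

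Where the injected mice stood relative to Ctrl varied by gene, again as a description. PTU exceeded Ctrl by a log2 difference of 1.94 ± 0.24 for Srpk3, 1.24 ± 0.16 for Izumo4, 0.95 ± 0.20 for Plxna3 and 0.58 ± 0.13 for Camk1. The injected mice were 0.66 ± 0.24 above Ctrl for Srpk3 and 0.43 ± 0.13 above for Izumo4. For Camk1 they differed from Ctrl by −0.16 ± 0.11 and for Plxna3 by −0.02 ± 0.18, the latter well inside its error. These comparisons share the Ctrl libraries with each other and with Mut against Ctrl.

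Per kilobase of exon the genes can be compared with each other. In Ctrl, Camk1 had 19.4 CPM per kb, Izumo4 8.66, Srpk3 8.35 and Plxna3 2.85. In PTU, Srpk3 had 32.2 CPM per kb, Camk1 29.1, Izumo4 20.6 and Plxna3 5.52. Srpk3 and Izumo4 were level in Ctrl within their spread, while Plxna3 had the lowest level of the 4 in both. The 5 muscle genes that would mark muscle RNA summed to at most 3.66 CPM in any library. Of these, Acta1 was listed at 0 in every library, Tnnt3 in those of Ctrl, Mut and PTU, and Myh4 in those of Ctrl. A listed 0 is not read as absence here, and the part of muscle RNA in the Srpk3 counts was not tested.

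Because 2 members are X-linked, the libraries were also split by Y-linked counts, which 3 Mut libraries and 1 Ctrl library held. Among libraries with Y-linked counts the log2 ratio of Mut to Ctrl means was 0.57 for Srpk3, 0.27 for Camk1, 0.42 for Plxna3 and 0.53 for Izumo4. Among those without, it was 0.62, 0.31, 0.82 and 0.46 in the same order of genes. The Mut side was higher in both classes for all 4, but each class holds a single library of 1 of the groups. With the presence of Y-linked counts as a covariate, edgeR gave 0.59 for Srpk3 (adjusted p = 0.566), 0.29 for Camk1 (adjusted p = 0.605), 0.62 for Plxna3 (adjusted p = 0.505) and 0.49 for Izumo4 (adjusted p = 0.555). All 4 differences were thus smaller with that term, and that of Srpk3 shrank the most. In PTU_TH against PTU, where the traits are spread more evenly, the ratios with and without Y-linked counts were −1.22 and −1.23 for Srpk3, −0.75 and −0.65 for Camk1, −0.95 and −0.85 for Plxna3 and −0.82 and −0.64 for Izumo4.

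Short genes and X-linked genes leaned the way the members lie. Of the 6537 genes no longer than Plxna3, 58.7% had a log2 fold change above 0 in Mut, with a median of 0.06, against 0.01 over all genes. For the 678 X-linked genes these values were 60.3% and 0.08. In PTU_TH against PTU the median was −0.06 over 5981 short genes, −0.03 over 545 X-linked genes and 0.00 over all genes. The part of length or chromosome in the members' differences was not tested. Mut 2, highest for Srpk3, Camk1 and Izumo4, had the lowest share of counts in long genes of its set, 27.4%. With that share as a covariate, an alternative added once the values were known, Srpk3 passed edgeR's adjusted test in Mut (0.97, adjusted p = 0.0429) and the other 3 did not.

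Markers of several other cell types lay on the members' side in 1 or both comparisons. The 8 markers of other interneurons summed to 135 to 158 CPM in Ctrl and 174 to 276 CPM in Mut, without overlap, with Sncg at 0 in all Ctrl libraries. All 6 that were tested had a positive difference, with a median of 0.59; edgeR called none, 2 had an unadjusted p under 0.05, and DESeq2 called Cck. In PTU_TH against PTU their sums overlapped, at 130 to 167 CPM in PTU and 93.3 to 159 in PTU_TH, with 5 of 6 negative and a median of −0.35. Excitatory neuron markers were negative in 8 of 10 there (median −0.31, 2 at an unadjusted p under 0.05) and positive in 7 of 10 in Mut (median 0.18), with sums that overlapped in both comparisons. Astrocyte markers were negative in 6 of 7 in PTU_TH against PTU (median −0.28) and in 5 of 7 in Mut (median −0.24). Oligodendrocyte markers were negative in 7 of 9 in PTU_TH against PTU (median −0.31) and in 5 of 9 in Mut (median −0.01). Neither edgeR nor DESeq2 called a marker of these last 3 types. The part of any of these markers in the members' differences was not tested. In bulk nuclei, fewer nuclei of a type and less RNA per nucleus cannot be told apart. Of 11 parvalbumin neuron markers tested, 5 were positive and 6 negative in Mut, and 7 positive and 4 negative in PTU_TH against PTU. At an unadjusted edgeR p under 0.05, 4 were lower and 2 higher in Mut, and 1 lower and 2 higher in PTU_TH against PTU. DESeq2 called 2 lower and 1 higher in Mut (Pvalb, Syt2 and Tac1), and Kcnc1 higher in PTU_TH against PTU. Pvalb averaged 120 CPM in Ctrl, 77.3 in Mut, 97.6 in PTU and 135 in PTU_TH, the reverse order of the members within each comparison. Tac1, which encodes a neuropeptide precursor, lay on the members' side: it was the 1 marker of this list that edgeR called in Mut, where it rose (1.17 ± 0.19, adjusted p = 0.0243), and it had −0.73 ± 0.26 in PTU_TH against PTU.

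The closest relatives of Srpk3 had values near 0. Srpk1, at 120 CPM in Ctrl, had log2 differences of −0.01 ± 0.13 in Mut and −0.08 ± 0.10 in PTU_TH against PTU. Srpk2, at 341 CPM in Ctrl, had 0.09 ± 0.12 and 0.03 ± 0.16. Both are broadly expressed kinases of SR proteins, and each value lay within 1 SE of 0; the difference from Srpk3 was not tested. The other 16 tested genes of a list of SRPK and CLK kinases and SR proteins held no edgeR or DESeq2 call in Mut, and 1 had an unadjusted p under 0.05: Srsf9, an SR protein gene (0.53 ± 0.15, edgeR adjusted p = 0.233). The list without Srpk3 had a median of 0.04 in Mut and −0.06 in PTU_TH against PTU, beside 0.01 and 0.00 over all genes.

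The relatives of Camk1 split. Pnck, which encodes the beta form of calcium/calmodulin-dependent kinase I and is X-linked, had 29.3 ± 6.77 CPM in Ctrl, 49.0 ± 8.997 in Mut, 49.4 ± 1.98 in PTU and 35.3 ± 3.02 in PTU_TH. Its log2 difference was 0.74 ± 0.19 in Mut (edgeR adjusted p = 0.153) and −0.49 ± 0.11 in PTU_TH against PTU (edgeR adjusted p = 0.182), and every Mut library was above every Ctrl library. Camk1g, the gamma form, had 0.34 ± 0.17 in Mut (edgeR adjusted p = 0.652) and −0.56 ± 0.14 after injection (edgeR adjusted p = 0.242). Camk1d, the delta form, had −0.12 ± 0.14 and 0.11 ± 0.28. The beta and gamma forms thus lay on the side of Camk1 in both comparisons, and edgeR called neither; the delta form lay within 1 SE of 0. Over the 24 other tested genes of the calcium/calmodulin kinase cascade edgeR called none in Mut, 3 had an unadjusted p under 0.05, 2 of them higher, and DESeq2 called Pnck. In PTU_TH against PTU, DESeq2 called Pnck lower and Camkk2 higher, and edgeR called neither. The median of the 24 genes was 0.04 in Mut and 0.02 in PTU_TH against PTU.

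The 3 paralogues of Plxna3 did not lie on its side. Plxna1 had log2 differences of −0.27 ± 0.16 in Mut and 0.43 ± 0.11 in PTU_TH against PTU, Plxna2 had −0.15 ± 0.14 and 0.29 ± 0.18, and Plxna4 had −0.06 ± 0.19 and 0.19 ± 0.30. None was called by edgeR, and the edgeR adjusted p of Plxna1 after injection was 0.257. Plxna4 lay within 1 SE of 0 in both comparisons, and Plxna1 and Plxna2 had the opposite sign to Plxna3 by more than 1 SE; the difference between the genes was not tested. Among 28 other plexin, neuropilin and semaphorin genes tested in Mut, edgeR called 1, Sema7a, a known hormone-induced semaphorin gene, which fell (−1.28 ± 0.21, adjusted p = 0.0259). Sema7a had 54.1 ± 8.36 CPM in Ctrl and 22.4 ± 6.07 in Mut, 34.4 ± 2.74 in PTU and 82.2 ± 8.945 in PTU_TH. Its product is a ligand of another plexin class, plexin C1, rather than of plexin A3.

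Of 17 tested genes whose products signal with class A plexins, edgeR called 1 in Mut, and DESeq2 called 3 (Chl1, L1cam and Trem2; 2 higher and 1 lower). Chl1, a cell adhesion gene of the L1 family, rose from 26.0 ± 3.46 CPM in Ctrl to 44.8 ± 3.46 in Mut (0.78 ± 0.14, edgeR adjusted p = 0.0412). In PTU_TH against PTU its log2 difference was −0.45 ± 0.11 (edgeR adjusted p = 0.247); DESeq2 called L1cam lower there. The medians of this list were −0.03 in Mut and 0.01 in PTU_TH against PTU. The relatives of Izumo4 gave no comparison. Izumo1 and Izumo2 had at most 0.3495 CPM in any library, Izumo3 was listed at 0 in every library, and none passed the filter on low counts. Izumo4 was the 1 gene of its family with counts enough for a test.

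**Figure D3:**
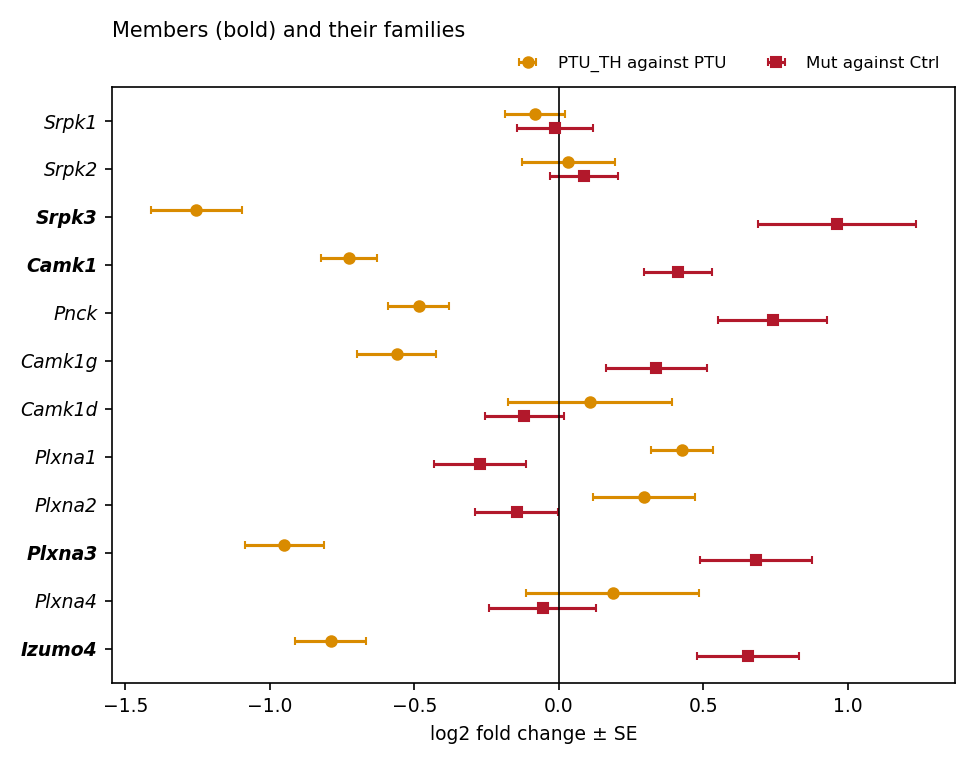
Log2 fold change ± SE (horizontal axis) in PTU_TH against PTU (circles) and Mut against Ctrl (squares) for the 4 genes, in bold, and their tested family members. Srpk1 and Srpk2 lie near 0, Pnck and Camk1g lie on the side of Camk1, Plxna1 and Plxna2 have the opposite sign to Plxna3, and Plxna4 lies within 1 SE of 0.

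Most genes that flank the members in the genome had differences nearer to 0, though the contrast with the members was not tested. Idh3g ends 37 bp from the end of Srpk3 on the opposite strand; it encodes a subunit of mitochondrial isocitrate dehydrogenase and had 355 ± 64.5 CPM in Ctrl. Its log2 differences were 0.12 ± 0.18 in Mut and 0.24 ± 0.22 in PTU_TH against PTU. Plxnb3, on the other side of Srpk3, averaged 0.807 CPM in Ctrl and had wide errors (0.37 ± 0.71 and 0.17 ± 0.96). Ogg1, a DNA repair glycosylase gene whose span overlaps the end of Camk1, had −0.54 ± 0.23 in Mut (edgeR adjusted p = 0.534) and −0.09 ± 0.18 after injection. With 8.49 CPM in Ctrl, beside 116 for Camk1, Ogg1 went the other way from Camk1 in Mut. The pseudogene Gm20589 on the other side of Camk1 was not tested.

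Around Plxna3, Fam50a had 0.26 ± 0.15 in Mut and −0.11 ± 0.16 after injection, and Lage3 had 0.15 ± 0.28 and −0.18 ± 0.16. Around Izumo4, Mob3a, which starts 206 bp away, had 0.00 ± 0.32 and −0.25 ± 0.23, and Ap3d1, an adaptor complex subunit gene, had −0.13 ± 0.11 and −0.12 ± 0.10. Of the 7 flanking genes tested, neither edgeR nor DESeq2 called any in either comparison, and Ogg1 in Mut was the 1 with an unadjusted p under 0.05.

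**Figure D4:**
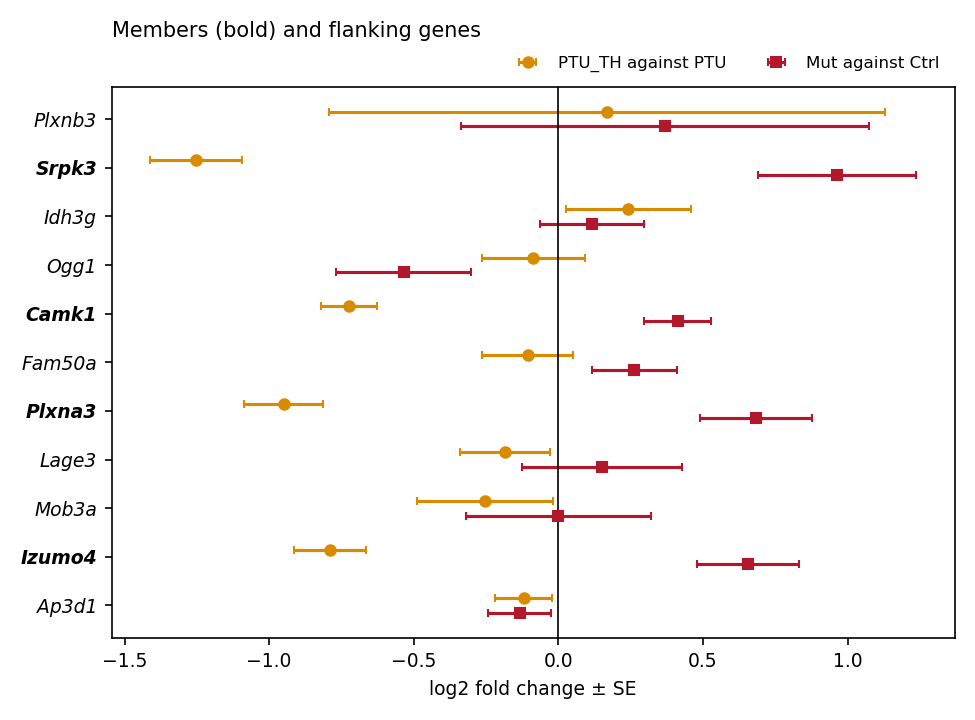
Log2 fold change ± SE (horizontal axis) of the 4 genes, in bold, and of the tested genes on either side of each, in PTU_TH against PTU (circles) and Mut against Ctrl (squares). The flanking genes lie nearer to 0 than the members, apart from Ogg1 in Mut at −0.54 and Plxnb3 with its wide error.

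Among themselves the members varied together in part. Over the 8 Ctrl and Mut libraries, with each group's mean removed, the Pearson correlation of log2(CPM + 1) was 0.96 between Srpk3 and Camk1, 0.87 between Camk1 and Izumo4 and 0.79 between Srpk3 and Izumo4. Plxna3 correlated with them at 0.18 for Srpk3, 0.03 for Camk1 and −0.31 for Izumo4. So Srpk3, Camk1 and Izumo4 shared their spread within groups and Plxna3 did not, though it lies on the same chromosome as Srpk3. Mut 2 was the highest Mut library for Srpk3, Camk1 and Izumo4. No share of all gene pairs with such correlations is given, so the shared spread is not read as particular to the members. The points share libraries, and with them depth, the share of long genes and the presence of Y-linked counts. The Ctrl library with Y-linked counts was the highest of its group for Srpk3, Camk1 and Izumo4, and also for Plxna3. The Mut library without Y-linked counts was the lowest of its group for Srpk3, Camk1 and Izumo4, but not for Plxna3. The part of Y-linked counts in these correlations was not tested. Of 9553 genes of at least 5 CPM in every group, those nearest to Srpk3 were Tmem161a (0.989), Fn3krp (0.987) and Lonp1 (0.979). Among those nearest to Camk1 were Setmar (0.988) and Prpf38b (0.982). Nearest to Plxna3 were Slc46a1 (0.985), Kif5a (0.979) and Trpc4ap (0.979), and nearest to Izumo4 were Pcsk1n (0.999), Actl6a (0.994) and Oxsm (0.991). These genes were chosen for their likeness within groups. Their log2 differences lay between −0.41 and 0.14 in Mut and between −0.28 and 0.16 in PTU_TH against PTU, with no unadjusted edgeR p under 0.05.

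The threshold of the choice fell among similar values. Izumo4, the last gene inside it, had an edgeR adjusted p of 0.0477, and Plxna3, Camk1 and Srpk3 had 0.0379, 0.0261 and 0.0202. Just outside were Myof (−1.19) and Gpnmb (−0.79), both at an edgeR adjusted p of 0.0535, and Prmt2 (−0.89) and Tle2 (−0.76), both at 0.0556. Myof encodes a membrane repair protein, Gpnmb a transmembrane glycoprotein, Prmt2 an arginine methyltransferase and Tle2 a corepressor. In Mut these 4 had log2 differences of 1.99, 0.69, 0.81 and 0.34, so genes just outside lay on the same side as the members. Their unadjusted edgeR p in Mut was 0.00056, 0.00095, 4.98e-05 and 0.018 in the same order. The members had 0.0031 to 0.0046, so Myof, Gpnmb and Prmt2 had a smaller p than any member.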

How the data were processed

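Each of the 15 libraries has 1 table of raw counts, as deposited by the authors, made with a SMART-Seq v4 ultralow input kit and Nextera XT and read as 75 bp single ends, per the labels' protocols. Bowtie2 2.5.3, HTSeq and mm10 (GRCm38) are named in the submitters' processing notes; the sources used here do not give the annotation release, counting mode or strand setting, which leaves counts of overlapping genes uncertain. Groups and replicate numbers came from the titles and the series design. The members and the gene lists were chosen with earlier results of these data known, and the named genes are the members, their families, flanking genes, nearest genes by correlation, list members called in Mut (or the 2 with the smallest p), and the 4 genes just outside the threshold. A gene that meets this rule is not reported here.

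Counts were fitted with edgeR 4.0.16 (R 4.3.3) over all genes: TMM scaling, filterByExpr (minimum count 10), quasi-likelihood fits with robust estimation, Benjamini-Hochberg adjustment, call at 0.05. The PTU and PTU_TH tables and the Ctrl and Mut tables were fitted separately; 46380 shared symbols served for comparisons across them. Common biological variation was 23.0% in PTU_TH against PTU and 27.8% in Mut against Ctrl. The fits were tested on simulated data. Libraries of a group differed by more than counting noise (chi-square of 7.91 to 120 per degree of freedom), so each counted as 1 sample. Y-linked counts were called present above 50 CPM. The alternatives tried were other scalings (RLE, upper quartile), other count filters, DESeq2 1.42.0, a joint fit of the 4 groups, covariates, replicate blocks and leaving out single libraries.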

Additional observations from a re-analysis of the deposited data

How the results depend on the processing

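Over 17 alternatives per gene, all 68 differences in Mut against Ctrl stayed above 0, and 63 of them stayed on the same side of the adjusted threshold. The 5 that crossed it were the DESeq2 values of 0.96 for Srpk3, 0.41 for Camk1, 0.68 for Plxna3 and 0.65 for Izumo4, and 0.97 for Srpk3 with the share of long genes as a covariate, which was chosen after seeing the data. All 60 values in PTU_TH against PTU (15 alternatives per gene) stayed below 0, but the calls that chose the members were mostly lost when 1 of the 7 libraries was left out: the edgeR adjusted p stayed under 0.05 in 3 omissions for Srpk3, 1 for Camk1, 2 for Plxna3 and 1 for Izumo4. In 1 fit of all groups Srpk3 (adjusted p = 0.0571) and Izumo4 (adjusted p = 0.0627) did not pass, nor did Izumo4 with upper quartile scaling (adjusted p = 0.0525). All 32 group levels under other scalings moved by less than 1 SD. Plxna3 in PTU_TH against Ctrl changed sign without PTU_TH replicate 1 (0.03), Ctrl replicate 2 (0.069) or Ctrl replicate 4 (0.02), and leaving out single libraries gave −0.17 to 0.069.

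The number of genes called in Mut against Ctrl, 59, became 196 in 1 fit of all groups, 399 with DESeq2, 90 with a filter at 1 CPM, 31 with the Y-linked covariate and 210 with the long-gene covariate. It was 11 to 103 when a library was left out: 19 without Ctrl replicate 2, 11 without Ctrl replicate 3 or Mut replicate 1, 13 without Ctrl replicate 4, 36 without Mut replicate 3, 16 without Mut replicate 4 and 103 without Mut replicate 2. The number called in PTU_TH against PTU, 43, became 203 with DESeq2, 335 with the Y-linked covariate and 1011 with the long-gene covariate, and 5 to 29 when a library was left out. The cause was not tested.

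Ctrl and Mut share replicate numbers. Libraries of the same number correlated at 0.31, 0.40, −0.08 and 0.19 in their deviations from the group means. Ctrl 1, Ctrl 2 and Ctrl 4 each correlated best with the Mut library of their own number. Ctrl 3 correlated best with Mut 4 (0.26). These values do not settle whether the numbers mark pairs, so the main fit had no pairing and a replicate block was an alternative. With a replicate block 82 genes were called, and the members had 0.98 (Srpk3, edgeR adjusted p = 0.0871), 0.41 (Camk1, 0.125), 0.70 (Plxna3, 0.183) and 0.64 (Izumo4, 0.126). The members had 273 counts or more in each library.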

Other observations

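Lists of genes known to respond to thyroid hormone in brain give a frame for the 4 members. Of 16 hormone-induced genes tested in Mut against Ctrl, edgeR called 3 lower: Hr (−3.06), Itga7, an integrin gene (−1.82), and Sema7a (−1.28). The median of the list was −0.61 in Mut and 0.66 in PTU_TH against PTU, where 5 were called higher. Of 9 hormone-repressed genes tested, edgeR called none in Mut, with 4 at an unadjusted p under 0.05 and 2 called by DESeq2, Dgkg and Hapln1. Dgkg, a diacylglycerol kinase gene, had 58.6 ± 3.77 CPM in Ctrl and 114 ± 32.8 in Mut (0.96 ± 0.19, edgeR adjusted p = 0.0650). Hapln1, a gene of the perineuronal net, had the opposite sign to its list in both comparisons (−0.57 ± 0.12 in Mut and 0.25 ± 0.14 in PTU_TH against PTU). The median of the list was 0.38 in Mut and −0.41 in PTU_TH against PTU, where neither edgeR nor DESeq2 called any of its genes. The members' values of 0.41 to 0.96 in Mut lie on the same side as that list, as a description of lists chosen with these data known. Their values of −1.25 to −0.72 in PTU_TH against PTU do so by the choice of the members, which fixed the sign there.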
